A study of Homo sapiens with 197 samples.

Results

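PRAME, CTAG1B, SSX2, XAGE1, XAGE3 and FMR1NB are 6 of the 42 tissue-restricted genes that were followed by Nanostring in a screen of activated kinases. They were chosen by name as a group of tumour antigens, and all 6 have a probe among the 75 of each lane. The cells were IMR90, a non-transformed line of human lung fibroblasts grown in DMEM with serum. Each kinase well was infected with a retrovirus encoding 1 kinase activated by a myristoylation signal, and RNA was taken on day 4. The labels give a collection of 192 kinases, of which 8 were not analysed here and HK1 was left out because its lane failed, and each of the remaining kinases has 1 well. These wells have 1 lane each, except PIK3CG and PTK2 with 2. Beside them are 3 lanes of 2 IMR90 control wells, 2 lanes of SW39 cells and 6 lanes of 1 reference RNA. The labels describe the IMR90 controls and the SW39 lanes as empty vector, while the study speaks in 1 place of non-infected cells. SW39 cells are transformed derivatives of IMR90. The reference is a commercial mix of RNA from human cancer cell lines, among them melanoma and testicular embryonal carcinoma, so its 6 lanes repeat 1 RNA and are not biological replicates. Second lanes that carry the name of a control, PIK3CG or PTK2 also carry a sample number that another sample has, and may hold that other sample.

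Cancer/testis antigens are proteins made by germ cells of the testis and by many tumours, and are silent in most somatic cells, where DNA methylation of their promoters contributes to the silencing. Because the testis presents few antigens to T cells, their appearance in a tumour can be recognized by the immune system, and several serve as targets of vaccines and of engineered T cells. PRAME, an autosomal gene, is the substrate receptor of a cullin ubiquitin ligase and a repressor of retinoic acid receptor signalling, and is abundant in melanoma. CTAG1B encodes NY-ESO-1, which is highly immunogenic. SSX2 is a transcriptional repressor of the family that is fused to SS18 in synovial sarcoma. XAGE1 and XAGE3 belong to the GAGE-like family of X-linked antigens, and FMR1NB is a testis-expressed membrane protein whose gene lies next to FMR1. The study counts XAGE3 among placenta-specific genes.

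Except for PRAME these genes are on chromosome X, and some exist there as copies. The table of RefSeq promoters (GRCh38.p14) held windows for PRAME, SSX2 and XAGE3 under these names, and for XAGE1 under the names of its copies XAGE1A and XAGE1B. One 300-base window was identical in full between XAGE1A and XAGE1B, and 1 between SSX2 and SSX2B, and CTAG1B and CTAG1A are also known as near-identical copies. Which copies each probe can bind was not analysed here, so the probes keep the names used in the deposited counts. The 150 bases before the outermost transcription start are shown for 4 genes, to show the annotated promoters of genes with a window in the table. Capitals mark each CG dinucleotide, the target of DNA methylation, which reads the same on both strands.
PRAME, chr22:22559266-22559415, minus strand: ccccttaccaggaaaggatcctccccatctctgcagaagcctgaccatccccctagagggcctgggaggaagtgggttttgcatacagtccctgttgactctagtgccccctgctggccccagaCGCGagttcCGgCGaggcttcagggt
SSX2, chrX:52707228-52707377, minus strand: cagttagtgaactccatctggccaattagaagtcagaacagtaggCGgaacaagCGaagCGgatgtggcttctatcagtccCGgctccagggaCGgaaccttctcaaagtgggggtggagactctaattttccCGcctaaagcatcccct
XAGE1A, chrX:52495658-52495807, plus strand: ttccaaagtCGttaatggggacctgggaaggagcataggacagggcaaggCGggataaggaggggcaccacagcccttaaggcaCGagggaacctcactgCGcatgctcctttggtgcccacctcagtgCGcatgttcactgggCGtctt
XAGE3, chrX:52868084-52868233, minus strand: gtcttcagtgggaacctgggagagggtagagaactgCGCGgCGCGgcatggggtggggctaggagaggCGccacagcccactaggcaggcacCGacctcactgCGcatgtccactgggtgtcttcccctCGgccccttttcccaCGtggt
Over 250 bases before the start, PRAME held 9 CG, SSX2 7, XAGE1A 9 and XAGE3 12, against a median of 10 over the 27305 genes with a window. At least 7 were found in 58.3% of these genes, at least 9 in 53.6% and at least 12 in 48.1%. By this count none of the 4 stands apart from other promoters.

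The first question is whether these probes counted anything in IMR90 cells. A raw count was called above background when it exceeded a level set for each lane, namely the mean of its 8 negative-control counts plus 2 SD. These probes have no target in human RNA. In the 3 control lanes this level was 25.9, 22.7 and 17.1 counts (well 1, and the 2 lanes of well 2), and total counts were 132257 to 152599. In the same order, PRAME had 5, 7 and 11 raw counts, and CTAG1B had 2, 4 and 1. SSX2 had 8, 10 and 12 counts, XAGE1 had 6, 5 and 10, and XAGE3 had 4, 7 and 6. FMR1NB had 22, 10 and 17. None of the 18 values was above the level, although FMR1NB came within 1 count of it in a lane of well 2. Over all 42 tissue-restricted probes, 8.73% of the values in control lanes were above it.

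**Figure D1:**
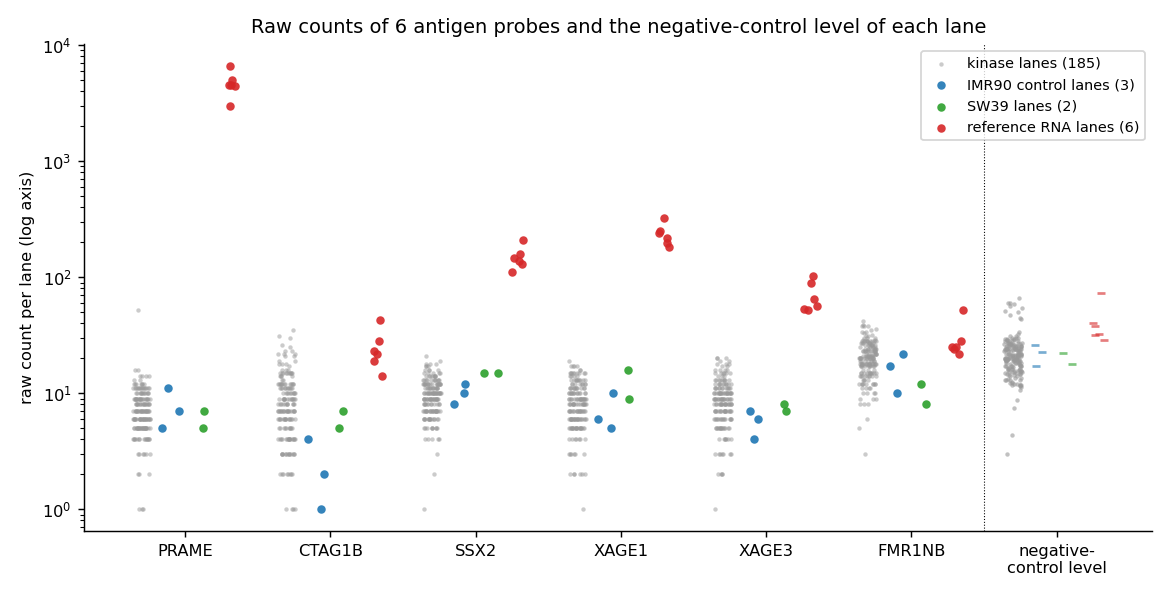
Raw count per lane (log axis) of each antigen probe in the kinase lanes (grey), 3 IMR90 control lanes (blue), 2 SW39 lanes (green) and 6 reference RNA lanes (red), with the negative-control level of the same lanes at the right. PRAME, SSX2, XAGE1 and XAGE3 in the reference lanes lie above all other lanes, and a single grey PRAME point at 52 stands away from the rest.

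The reference RNA shows which probes can report a transcript, since the mix holds tumour cells of several kinds. PRAME had 6595, 4581, 4479, 5055, 4567 and 2984 raw counts in reference lanes 1 to 6, between 90.5 and 154.6 times the negative-control level of the lane. For weaker probes the normalized counts are easier to compare, in which a lane is scaled first by its positive controls POS_A to POS_F and second by its housekeeping genes PGK1, TBP and TUBB2A (their geometric mean). XAGE1 had normalized counts of 124.2, 134.05, 104.3, 156.99, 134.9 and 169.2 in the same lanes. SSX2 had normalized counts of 80.2, 85.8, 62.9, 95.4, 93.5 and 102.6. Their raw counts were 4.42 to 7.77 and 2.85 to 4.97 times the level of the lane, lane 3 having the lowest normalized count of each and lane 6 the highest. XAGE3 had normalized counts of 39.3, 34.9, 43.2, 33.7, 37.9 and 48.99, with raw counts from 1.30 to 3.11 times the level, the narrowest margin among the probes above it in all 6 lanes. CTAG1B had 43, 28, 22, 23, 19 and 14 raw counts, all below levels of 28.96 to 72.9, and FMR1NB had 52, 25, 28, 25, 24 and 22, also all below. Thus 4 of the 6 antigens were above background in 6 of 6 reference lanes and 2 in none, while 46% of all values of the 42 probes in these lanes were above it. SSX1, a paralog of SSX2 that was also on the panel, was above in all 6 lanes.

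To set the reference beside the controls, lanes were compared by the ratio of geometric means of (normalized count + 1). The control counts of the 6 probes are all within background, so no exact fold can be had from them. With every count under the level of its lane set to that level, PRAME was at least 111.9-fold the controls, the first of the 42 probes by this ratio, with normalized counts of 2152 to 3279 over the reference lanes (CV 15.4%). XAGE1 was at least 5.69-fold, SSX2 at least 3.61-fold and XAGE3 at least 1.68-fold the controls. CTAG1B and FMR1NB, below the level in both groups, were both at 0.98-fold on this scale, which then compares the levels of the lanes and not the probes. With counts as deposited, the ratio rests on a handful of counts in the denominator, and it was 345-fold for PRAME. By the same ratio XAGE1 was 17.8-fold, SSX2 8.22-fold, XAGE3 6.50-fold and CTAG1B 4.71-fold the controls, and FMR1NB was 0.95-fold. Scaled by positive controls only, these ratios were about doubled, at 698.5-fold for PRAME, 36.02-fold for XAGE1, 16.7-fold for SSX2, 12.9-fold for XAGE3, 8.91-fold for CTAG1B and 1.92-fold for FMR1NB, and FMR1NB was at 1.16-fold with 4 housekeeping genes. At 2-fold or more were 5 of the 6, against 78.6% of the 42 probes, and for the same 5 every reference lane was above every control lane, against 73.8% of the 42. So most of the panel met these criteria, and the 6 antigens did not differ visibly from it in that respect. The negative-control probes, scaled the same way, had ratios of 0.51 to 2.02, with a median of 1.08.

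A list of 13 cancer/testis genes from the rest of the panel was set beside the 6 antigens. The list is not complete, and leaves out SSX1 at 13.5-fold and MAGEB18 at 2.73-fold. Of the 13, 10 were at 2-fold or more with counts as deposited, with a median ratio of 2.47, and 5 were above the level in all 6 reference lanes. Over all 36 other probes of the panel, 28 were at 2-fold or more, the median was 2.45, and 9 were above the level in all 6 lanes. The highest of the 13 were MAGEA3, an antigen that binds ubiquitin ligases, at 251-fold, MAGEA12 at 53.5-fold and TPTE, a testis phosphatase-like protein, at 33.8-fold. No control lane was above the level for these genes. With counts set to the level they were at least 48.2-fold, 10.0-fold and 9.75-fold the controls. The lowest were ADAM2, a sperm membrane protein, at 1.52-fold, TKTL1, a transketolase-like enzyme, at 1.29-fold and SPACA3, a sperm lysozyme-like protein, at 1.12-fold. With counts set to the level ADAM2 was at 1.05-fold. TKTL1, SPACA3 and BRDT were then all at 0.98-fold, so this order holds only for counts as deposited.

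**Figure D2:**
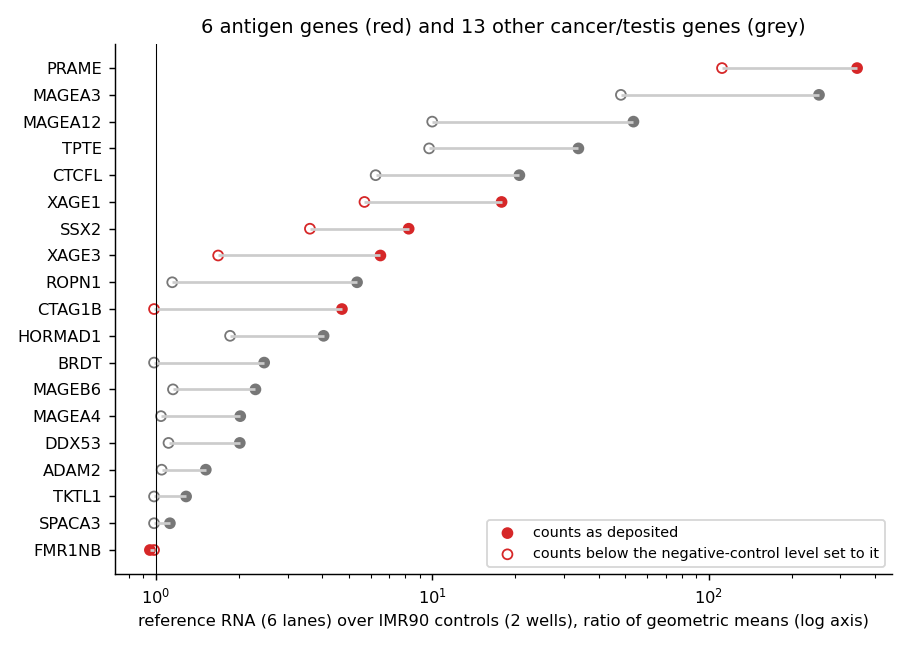
Ratio of the reference RNA (6 lanes of 1 RNA) to the IMR90 controls (2 wells) on a log axis, for the 6 antigens (red) and 13 cancer/testis genes from the rest of the panel (grey). Filled points use counts as deposited and open points set counts below the negative-control level to that level, which takes PRAME from 345-fold to 111.9-fold and CTAG1B from 4.71-fold to 0.98-fold.

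SW39 cells show whether these antigens had counts above background in this transformed derivative of IMR90. In SW39 samples 1 and 2, PRAME had 5 and 7 raw counts, CTAG1B 5 and 7, SSX2 15 and 15, XAGE1 9 and 16, XAGE3 8 and 7 and FMR1NB 8 and 12, against levels of 17.7 and 22.3. All 12 values were below the level, where 8.33% of the values of the 42 probes were above it. edgeR's quasi-likelihood test, with Benjamini-Hochberg adjustment over the 42 probes, called 7.14% of them and none of the 6 antigens, of which 1 had an unadjusted p below 0.05. Neither DESeq2 nor limma called any of the 6, with 1 and 2 of them at an unadjusted p below 0.05. In edgeR this 1 probe was FMR1NB, with a log2 difference of -1.01 ± 0.32 (SE, adjusted p = 0.0640, edgeR). With TMM factors (-1.22, adjusted p = 0.0116) and with the replicate number as a block (-1.04, adjusted p = 0.0480) edgeR called it. All FMR1NB counts of both groups are below the level of their lane, so these values set background against background and show no change of the transcript. CTAG1B differed by 1.03 ± 0.53 (adjusted p = 0.541, edgeR), with 5 and 7 counts against 2, 4 and 1. The log2 difference was -0.64 for PRAME, 0.29 for SSX2, 0.53 for XAGE1 and 0.11 for XAGE3 (adjusted p from 0.573 to 0.927, edgeR), again from counts below the level. No difference was detectable for them at this depth. Nothing in the labels says that the samples of a group came from separate cultures, so the p-values measure the spread between these samples.

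The kinase wells come next, since the screen asked which pathways turn on tissue-restricted genes in normal cells. Across the kinase lanes, total counts ran from 29629 to 340763, with a median of 160138, and the median level was 20.6 counts. PRAME had a median of 7 raw counts (lowest 1, highest 52), and SSX2 a median of 10 (1 to 21). XAGE1 had a median of 8 (1 to 19), XAGE3 of 9 (1 to 20) and CTAG1B of 8 (1 to 35). These medians are 0.32 to 0.42 times the level of the lane. FMR1NB had a median of 20 counts (3 to 42), 1.00 times the level.

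Counts were above the level in 5 lanes for PRAME, 5 for SSX2, 4 for XAGE1, 3 for XAGE3 and 13 for CTAG1B, and in 91 for FMR1NB. With the level at mean + 3 SD these numbers were, in the same order, 1, 0, 1, 1, 3 and 45. At mean + 2 SD the 6 probes together were above the level in 10.9% of 1110 values and all 42 probes in 16.3%. The latter share rests in good part on ADAM12, ALAS1 and ATAD2, the 3 probes above the level in every control lane, and over the remaining 39 probes it was 9.91%, close to that of the antigens. The negative-control probes give a second yardstick. Each of them, judged on the other 7 of its lane, was above in 8.65% of the lanes on average, but NEG_E was above in 28.6% and NEG_F in 30.3%, with mean counts of 16.1 and 16.6. FMR1NB, at 49.2% and a mean of 20.3, was above both NEG_E and NEG_F in 56.8% of the lanes and above every negative probe in 53.5%. The shares of NEG_E and NEG_F use a level that leaves out their own count, so they are not on the same level as that of FMR1NB. By its counts, FMR1NB lay just over the brightest probes without a target, and its 91 lanes above the level do not separate from background by much.

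**Figure D3:**
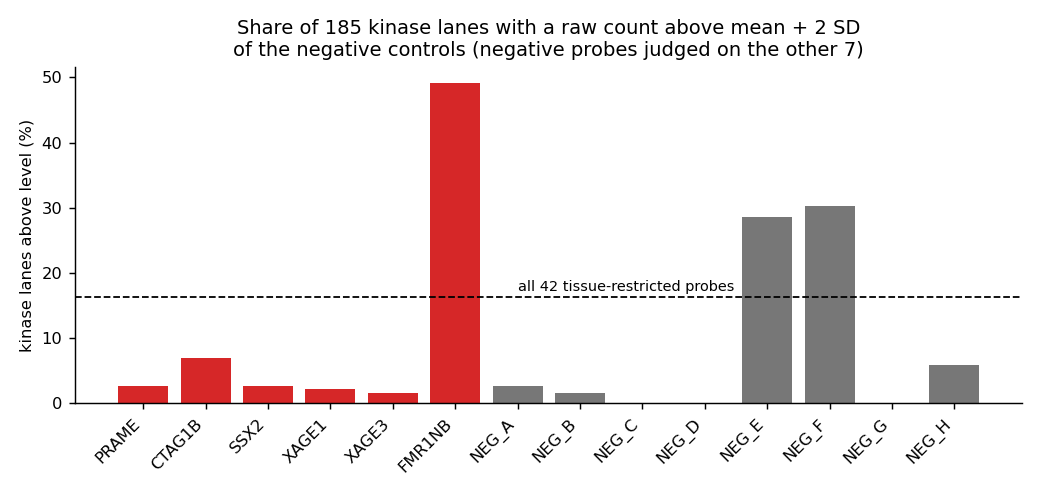
Share of the kinase lanes (%) in which each antigen probe (red) or negative-control probe (grey) exceeded the mean + 2 SD of the negative controls, with a dashed line for all 42 tissue-restricted probes at 16.3%. FMR1NB is at 49.2%, NEG_E and NEG_F are near 30%, and the other 5 antigens are below 8%.

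The PRAME lane that stood away from the rest was that of MAP3K14, the kinase of the alternative NF-kB pathway that is also known as NIK. It held 52 PRAME counts (95% exact Poisson interval 38.8 to 68.2, counting error only), 2.5 times its level of 20.8, while the next highest PRAME count in any kinase lane was 16. The normalized count was 51.7, against 4.97 and 9.19 in the control wells, which are within background. With counts below the level set to it, as for the reference RNA, the well was at least 2.19-fold the controls. The reference RNA was 51.99-fold this well. In bulk RNA, expression in a few cells and a low level in all cells cannot be told apart. Of the other antigens in the same lane, CTAG1B had 8 counts, SSX2 8, XAGE1 7 and XAGE3 9, all below the level. FMR1NB had 27 and was above it, as in 91 of the kinase lanes. Total counts of this lane (140613) and its scaling factor (0.99) were close to the medians of all kinase lanes, 160138 and 1.03.

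Each probe was then scored over the wells as a Z-score, the distance of log2(normalized count + 1) from the mean of all kinase wells and the 2 control wells, in SD units. PRAME reached 4.31 in MAP3K14, and PRAME was the only one of the 42 probes above 2.5 in that well. Of the other kinases that act upstream of NF-kB, 4 were looked at and did not score. Whether the pathway was active in these wells was not tested. PRAME was at a Z-score of -0.70 with 7 counts in MAP3K7 (TAK1), at 0.47 with 7 in MAP3K8 (TPL2), at -0.10 with 9 in IKBKE and at -1.83 with 3 in TBK1, all 4 below the level of the lane. With 1 lane per kinase there is no replicate against which to test the MAP3K14 value.

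Above 2.5 were 10 of 1098 pairs of an antigen and a kinase well, or 0.911%, against 0.39% of the pairs of all 42 probes. Besides MAP3K14, PRAME was above in HK3 (2.64, 12 counts) and MAST1 (2.57, 12 counts). SSX2 was above in HK3 (2.71, 12 counts), ITPKB (2.66, 14 counts) and MAST1 (2.62, 12 counts). XAGE1 was above in PIP5K2A (3.79, 8 counts), XAGE3 in CSNK1E (2.57, 18 counts) and PDIK1L (2.54, 10 counts), and FMR1NB in MAPK12 (2.62, 27 counts). CTAG1B was above in no well, its highest being PIK4CA at 2.40, EPHA4 at 2.20 and HK2 at 2.20. Among the 3 highest wells of an antigen but under 2.5 were also PRKAG2 (2.43) and TSSK6 (2.42) for XAGE1, PIK4CA (2.22) for XAGE3, and MAST1 (2.20) and STK32C (1.99) for FMR1NB. Of the 10 pairs, 6 were also above the level of their lane. MAP3K14 apart, every one of these raw counts for PRAME, SSX2, XAGE1 and XAGE3 was between 8 and 18 counts, which some lanes without a high score also had.

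Most of these scores came from wells with high scaling factors. Of the 10 pairs, 8 lay in the wells from MAST1 to PIP5K2A in the order of the sample numbers of the labels, a range chosen after the values were seen that holds 22 kinase wells, or 12.02% of them. The same wells held 21 of the 30 pairs above 2.5 over all 42 probes, the antigens included, so the pattern was not limited to the antigens. The median scaling factor was 1.62 in these wells and 0.99 in the others, since their housekeeping counts were lower. PIP5K2A had the lowest total of any kinase lane used, 29629 counts, and a factor of 6.20, which turned 8 raw counts into 49.6. Likewise HK3 and MAST1 had factors of 2.07 and 2.01, so that 12 counts became 24.9 and 24.1. With lanes scaled by positive controls only, 5 pairs were above 2.5, of which 4 lay in the same range of wells. PRAME in HK3 (2.56), SSX2 in HK3 (2.52) and XAGE1 in PIP5K2A (3.39) stayed above 2.5 without the housekeeping factor, as did PRAME in MAP3K14 (5.42), and the other 6 of the 10 pairs fell below it, to Z-scores of 1.53 to 2.49. Over the kinase wells the rank correlation between the normalized count and the scaling factor was 0.38 for PRAME and FMR1NB, 0.35 for XAGE1, 0.30 for SSX2, 0.22 for XAGE3 and 0.14 for CTAG1B, and that of the raw count was from -0.36 to -0.17, a description over wells that share this factor by construction. Only the pair of PRAME and MAP3K14, and no other of the 10, stayed above 2.5 in all 11 recomputations that changed normalization, background, pseudocount, wells or batch, with Z-scores from 3.07 to 5.80.

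**Figure D4:**
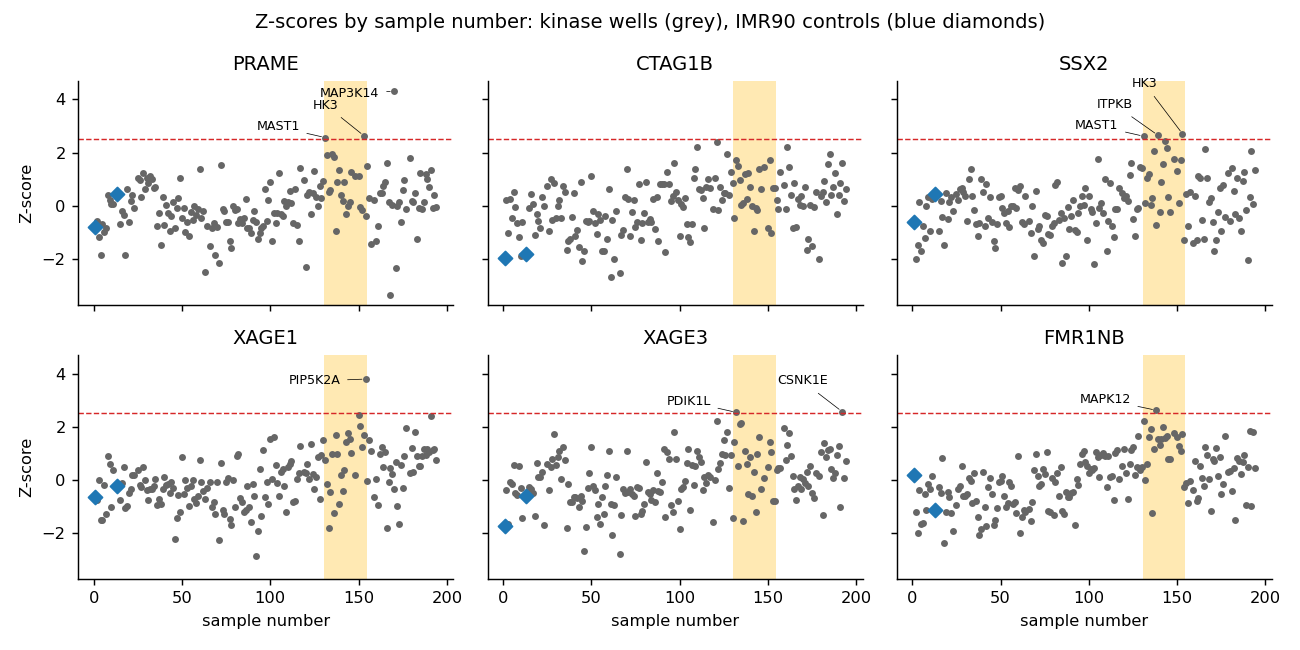
Z-score of each antigen in every kinase well (grey) and in the 2 IMR90 control wells (blue diamonds) by sample number, with a dashed line at 2.5 and the range from MAST1 to PIP5K2A shaded. PRAME in MAP3K14 at 4.31 lies outside the shaded range, while 8 of the 10 named points above the line lie inside it.

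Normalized counts also differed between ranges of sample numbers. In blocks of 12 numbers, the median normalized FMR1NB count ran from 13.1 (numbers 37 to 48) to 35.3 (block 12, which holds MAPK12 and ITPKB), while the scaled mean of the negative controls was 9.60 and 9.77 in these blocks. The raw medians were 15 and 23 counts. For SSX2 the normalized block medians ran from 7.24 to 14.5, but the raw medians of these 2 blocks were 10 and 9.5, with scaling factors of 0.76 and 1.61. For PRAME they ran from 4.98 to 11.5, with raw medians of 5 and 12. PRAME was highest in numbers 25 to 36, where the scaled negative controls were also high, at 21.1. Whether these blocks were run together is not stated in the labels.

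As a group, kinase wells were set against the 2 control wells by a two-sided exact permutation test over all 17020 choices of 2 wells, with Benjamini-Hochberg adjustment over the 42 probes, by which 4.76% of the 42 were called and none of the 6. CTAG1B had the largest difference among the 6, 1.56 on the log2 scale (exact permutation p = 0.00588, adjusted p = 0.0823). Both groups are mostly within background, and with counts set to the level of the lane the difference was -0.037. Normalized counts were 1.99 and 2.25 in the control wells, and all but 6 of the kinase wells were above both. XAGE3 differed by 0.66 (adjusted p = 0.312 in the exact permutation test), with all but 49 kinase wells above both controls. PRAME differed by 0.11, SSX2 by 0.04, XAGE1 by 0.28 and FMR1NB by 0.23, with adjusted p of 0.686 to 0.954 and kinase wells on both sides of the controls. CTAG1B was the only one of the 6 with an unadjusted p below 0.05.

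The counts of CTAG1B went together with another row of the panel. The row that the files name ZBTB33 had a median normalized count of 23049 over the kinase wells (149.9 to 114791), and 8.94 and 15.98 in the control wells, so that every kinase well was above both controls in this row. It is called by its name in the files, which may not apply to it, since it was low in both controls and high in the infected wells. Which transcript it counts, a gene or a part of the vector, was not tested. The 3 wells highest in CTAG1B were PIK4CA with 31 raw counts, EPHA4 with 30 and HK2 with 35, above levels of 15.5, 24.2 and 18.8. Their ranks in the ZBTB33 row were 3, 4 and 2, at 95040, 93875 and 96754. AMHR2, the highest in that row, had 18 CTAG1B counts, below its level of 27.3. At the other end TAOK3, the lowest kinase well in the ZBTB33 row, had 5 CTAG1B counts, TTK 4, CDK7 2, RIOK3 3 and CHEK1 4. Of the 13 lanes with CTAG1B above the level, 11 were among the 46 wells highest in the ZBTB33 row.

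Over the kinase wells, CTAG1B correlated with this row with Spearman rho 0.76 and Pearson r 0.71 on log2 values (permutation p = 1e-05 for each, the smallest that 100000 permutations can give, adjusted p = 2.33e-05 and 2.8e-05 over the 42 probes). Without the 2 wells farthest from the median of the row, r was 0.73. With counts below the level of the lane set to that level, rho was 0.03. That setting replaces the CTAG1B count in all but the 13 lanes above the level, so it cannot show where the relation lies. Most CTAG1B counts were under background. On raw counts rho was 0.80, and with blocks of 12 sample numbers centred it was 0.75. It was positive in 16 of 16 blocks, with a median of 0.77. XAGE3 followed the row less closely (rho 0.41, adjusted permutation p = 2.33e-05, positive in 13 of 16 blocks), and FMR1NB weakly (rho 0.19, adjusted permutation p = 0.0177), with a rho of 0.02 once blocks were centred. For XAGE1 rho was 0.14, for SSX2 0.08 and for PRAME -0.02, with adjusted permutation p of 0.0669, 0.303 and 0.829. A positive relation was called for 73.8% of the 42 probes, with a median rho of 0.24, so the presence of a relation is common and its size in CTAG1B, the second of 42 after MAEL, is not. The 8 negative-control probes had rho from -0.16 to 0.06. This relation was examined after the values were seen, and what produces it was not tested.

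**Figure D5:**
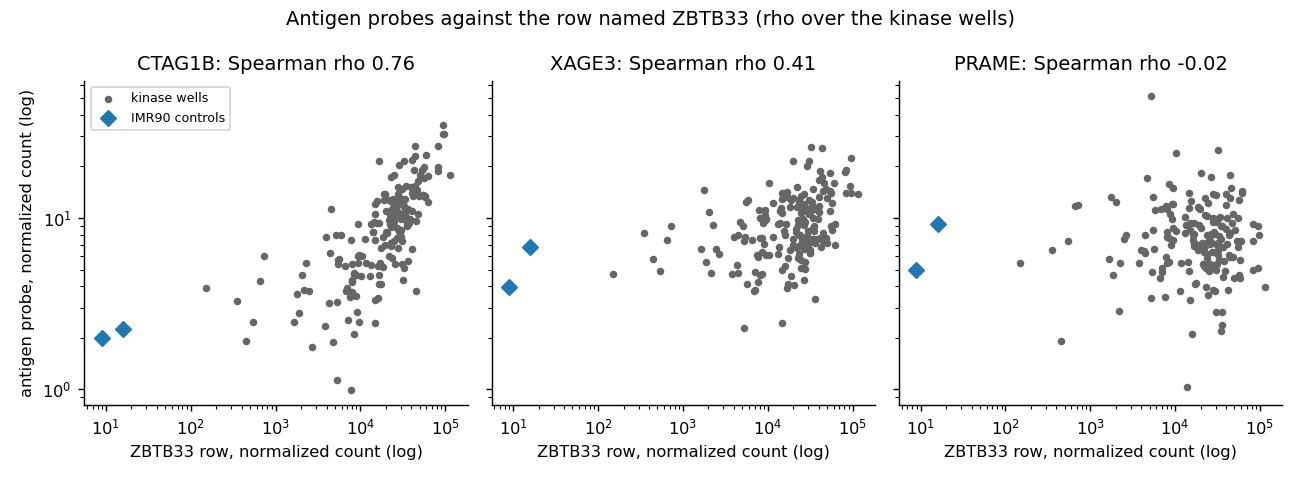
Normalized counts of CTAG1B, XAGE3 and PRAME against the row named ZBTB33 (both axes log), for the kinase wells (grey) and 2 IMR90 control wells (blue diamonds). CTAG1B rises with the row from the controls at about 2 to PIK4CA at 34.7 (rho 0.76), whereas PRAME does not (rho -0.02) and its MAP3K14 point at 51.7 stands at a low ZBTB33 value of 5149.

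Finally, the wells gave a profile for each antigen, and the most alike of the other 41 genes are named by Spearman correlation over the kinase and control wells, a description of points that share scaling and depth. CTAG1B was most like MAEL (0.73), a piRNA pathway protein, and MAGEA12 (0.72), and these 2 probes ranked 1 and 3 among the 42 in their relation with the ZBTB33 row. FMR1NB was most like PLCZ1 (0.68), the sperm phospholipase of egg activation, and MAGEA4 (0.67). XAGE3 was most like ROPN1 (0.57), a sperm flagellar protein, and CTAG1B (0.55). PRAME was most like C9orf11 (0.45) and MAGEA4 (0.39), SSX2 like XAGE1 (0.40) and PRAME (0.39), and XAGE1 like RFX4 and SSX1 (0.45 each). The median over the other 41 genes was 0.26 for PRAME and SSX2 and 0.39 for FMR1NB. Among the 15 pairs of the 6 antigens the correlation ran from 0.12 to 0.55, with a median of 0.33.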

How the data were processed

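The authors deposited raw counts per probe and lane, and 1 table of all lanes in which the deposited signal is each count times a factor of its lane. That factor was 1 in 8 lanes, and this table was used as an alternative. No genome build or aligner applies to these direct counts. The 6 antigens and all lists were chosen with earlier results of these data known. All 6 members are named, with every well above a Z-score of 2.5 or among the 3 highest, and the 2 genes most alike. Normalization and scores were obtained with Python 3.11.15, numpy 2.4.6 and scipy 1.17.1, with a pseudocount of 1 before log2, and lanes of the same name were averaged. HK1 was left out because its 57 endogenous rows summed to 92 counts. For SW39, lanes of a control well were summed and tested with edgeR 4.0.16 in R 4.3.3, with the housekeeping geometric mean as library size. DESeq2 1.42.0 and limma 3.58.1 were alternatives. SEs were derived from edgeR's F statistic. Code was tested on simulated data. Other alternatives covered normalization, pseudocount, background, lanes and batch. Accessions of 5 of the 6 probes matched RefSeq (GRCh38.p14). XAGE1 matched as a synonym. Probe sequences were not analysed here. Intervals cover counting error only.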

Additional observations from a re-analysis of the deposited data

Results flagged for a closer look

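The row named ZBTB33 is outside the main measurement and was looked at again because its median over the kinase wells, 23049 normalized counts, lay far above both control wells, at 8.94 and 15.98. For the same reason the relation of CTAG1B with it is listed, with a Spearman rho of 0.76 over the kinase wells. Over the 6 reference lanes, no antigen had a lane that stood apart from the rest by Dixon's criterion.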

How the results depend on the processing

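For SW39, the count of antigens called was 0 and became 1 with TMM and 1 with the replicate block, in both cases FMR1NB (adjusted p = 0.0116 and 0.0480, edgeR), whose counts are all below the level of their lane. The replicate numbers are shared by name only, and same-numbered samples deviated with a correlation of 0.06 over the 42 probes. Of the 42 probes 3 were called, and 0 to 2 when 1 sample was left out. It was 0 without either control. XAGE3 turned to -0.11 with TMM and ranged from -0.12 to 0.64 over all settings, at -0.12 without control 1 and -0.06 without SW39 sample 1, and PRAME ranged from -0.90 without control 1 to 0.010 without control 2. When only probes above the level in 2 lanes were tested, no antigen was left.

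For the kinase wells against controls, no antigen was called except 1, CTAG1B, with positive controls only (1.73, adjusted permutation p = 0.0444). Over its settings that p ran from 0.0444 to 0.985. Of the 42 probes 2 were called, and 0 with 4 housekeeping genes, the deposited table, pseudocount 10, counts set to the level, or first lanes only. Setting counts to the level gave -0.047 for PRAME, -0.037 for CTAG1B, -0.051 for SSX2, -0.045 for XAGE1 and -0.053 for XAGE3, and by construction removes differences under it.

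The 10 pairs above 2.5 became 3 with 4 housekeeping genes, 5 with positive controls only, 17 with pseudocount 10, 49 with counts set to the level, 2 with HK1 included, 6 when the count also had to be above the level, and 4 without the wells from MAST1 to PIP5K2A in the numbering, an alternative chosen after seeing the data. Of the original 10, 3, 4, 10, 3 and 2 were shared with the first 5 of these. With blocks of 12 sample numbers centred 8 pairs were above 2.5, of which 4 were among the original 10. With the deposited table there were 7, of which 5 were among them. XAGE1 in PIP5K2A was at -0.027 in the deposited table, where that lane is not scaled. The cause of the other changes was not tested.

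The antigen values above the level, 10.9% of 1110, became 4.59% at mean + 3 SD (51 values), where 10.9% of the values of all 42 probes were above. The 5 antigens at 2-fold or more in the reference became 3 with counts set to the level, where CTAG1B was at 0.98-fold. Positive controls only raised all 6 ratios, and FMR1NB turned from below to above 1-fold there, with 4 housekeeping genes, with first lanes only (1.08-fold) and without control 1 (1.19-fold), while it was at 0.76-fold without control 2. The relation of CTAG1B with the ZBTB33 row was 0.032 with counts set to the level, since few CTAG1B counts exceed it, and 0.80 at most in the other added settings. Counts of about 10 limit what any of these probes can show.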
